A study of Rattus norvegicus with 15 samples.

Results

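Ptprj, Ptpra, Ptprf and Ptprs code for receptor tyrosine phosphatases, and they were read in rat mesenteric arteries by every probe set that the platform annotation names with one of these 4 symbols. These 4 genes, of 4736 with a probe set named for them alone, were covered by 8 of the 8740 probe sets that are not array controls: 1 for Ptprj, 2 for Ptpra, 1 for Ptprf and 4 for Ptprs. Ptprj was chosen by its measured signal in SHR against WKY control arteries, and the other 3 genes were added as relatives with probe sets on the same array. The tissue came from SHR, the spontaneously hypertensive rat, an inbred strain with high blood pressure, and from WKY, the Wistar Kyoto rat, with normal blood pressure, to which it is usually compared; the study's title concerns impaired growth of collateral arteries in SHR. From each strain there were collateral arteries, which were made by occluding adjacent arteries so that the open vessel carries more flow, and control arteries. The groups held 4 SHR collateral, 4 WKY collateral, 4 SHR control and 3 WKY control arrays, 15 in all. The labels give no age, sex or time after occlusion, and whether each array is a different animal is not stated. The p-values therefore rest on the spread among arrays, which may be technical.

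Receptor tyrosine phosphatases are membrane proteins that remove phosphate from tyrosine residues, which opposes or redirects the signals of tyrosine kinases. Ptprj, also called DEP-1 or CD148, is known from endothelial cells, leukocytes and platelets, acts on growth factor receptors such as those for VEGF and PDGF and on catenins at cell contacts, and can switch on Src family kinases. Ptpra switches on Src family kinases by removing an inhibitory phosphate. Ptprf, also called LAR, and Ptprs are close relatives with immunoglobulin and fibronectin repeats outside the cell. Ptprf acts on the insulin receptor and on cell adhesion, and Ptprs binds heparan and chondroitin sulfate proteoglycans of the matrix.

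Values are MAS5 signals, 1 per probe set and array, on the log2 scale unless called signals. The number of arrays limits the precision. Differences between groups set a probe set's level only against its own level on other arrays. Percentiles set it against the other probe sets of the same array, and are not read as RNA amounts. A signal under its own array's 20th percentile is called dim here. Smooth muscle markers are given to describe the tissue, and with no other tissue measured they do not check it. All 9 on the array were tested. Their summed signal was 82414 to 339462 in SHR collateral and 226755 to 326560 in WKY collateral arteries. It was 150711 to 314388 in SHR control and 232402 to 334192 in WKY control arteries. The array SHR collateral 3 stood apart. Its Spearman correlation with the other 14 arrays was 0.496 to 0.657, against 0.805 to 0.931 among those 14, and the 20th percentile of its signals was higher, at 171.2, where the other arrays had 43.4 to 83.3. Differences of the 4 genes that use it and moved by over 1.5 times without it are given both ways. In whole arteries, fewer cells of a type and less RNA per cell cannot be told apart.

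Ptprj was at its lowest in SHR and at its highest in WKY, in both kinds of artery. Its signal was 244, 71.4, 143 and 46.6 on the 4 SHR collateral arrays, against 886, 761, 700 and 510 on the 4 WKY collateral arrays. It was 67.2, 115, 62.3 and 64.7 on the 4 SHR control arrays, against 909, 481 and 1334 on the 3 WKY control arrays. The highest of the 8 SHR arrays stood at 7.93 on the log2 scale and the lowest of the 7 WKY arrays at 8.91, so the strains did not overlap. The mean levels ran, from low to high, as 6.22 ± 0.42 (SD, n = 4) in SHR control, 6.70 ± 1.06 (SD, n = 4) in SHR collateral, 9.45 ± 0.34 (SD, n = 4) in WKY collateral and 9.71 ± 0.74 (SD, n = 3) in WKY control arteries. The groups of the same strain overlapped each other.

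**Figure D1:**
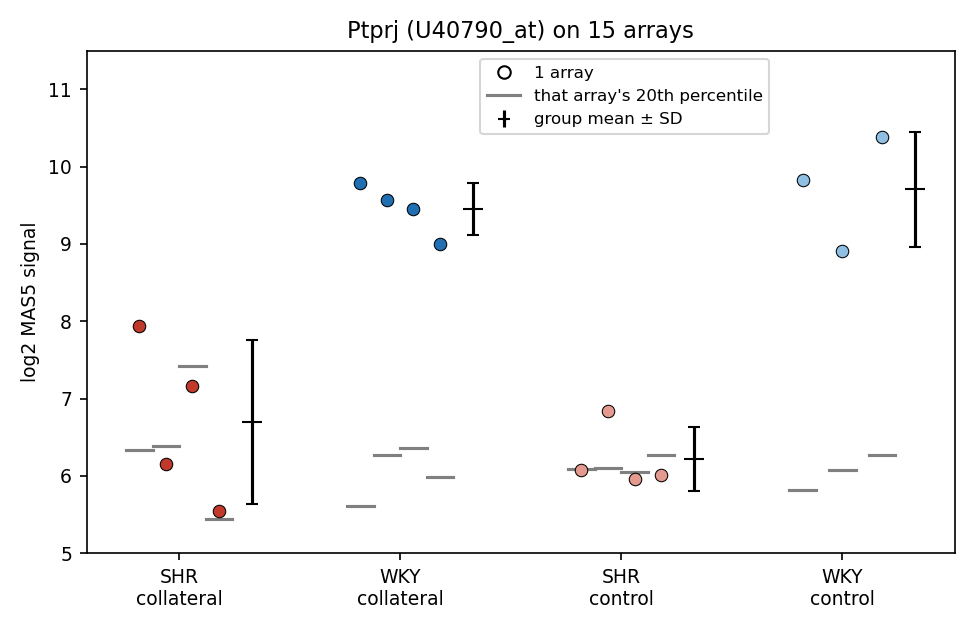
Log2 MAS5 signal of Ptprj (U40790_at) on the 15 arrays, with 1 point per array, the group mean ± SD as a bar beside the points and a grey line at the 20th percentile of each array. The 8 SHR points reach 7.93 and the 7 WKY points start at 8.91. In SHR, 5 of 8 points lie below their grey line, and in WKY 0 of 7 do.

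Much of the Ptprj signal in SHR was dim. It lay below the array's 20th percentile on 5 of 8 SHR arrays (2 of 4 collateral and 3 of 4 control) and on 0 of 7 WKY arrays. Ranked among all probe sets of its own array, it stood between the 16.0 and the 44.2 percentile on SHR arrays, against 60.6 to 80.6 on WKY arrays, so the ranges of ranks did not overlap either. The probe set passed the filter on low signal (3 or more arrays where it reached the 40th percentile) on 7 of 7 WKY arrays and 1 of 8 SHR arrays. It therefore entered the test through the strain where it is high.

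The collateral arteries are the arrays on which Ptprj was not chosen, and there its log2 difference, SHR minus WKY, was -2.75 ± 0.53 (SE, 95% interval -3.87 to -1.64), a ratio of 0.148. Every SHR value lay below every WKY value, which 1.55% of the 6512 tested probe sets also did in this direction. The adjusted p from limma was 0.0783, which misses 0.05, and 0 of 6512 probe sets passed (0%). That fit took its spread from all 15 arrays, including the control arrays on which the gene was chosen, and with only the 8 collateral arrays the SE was 0.59 and the adjusted p 0.347. At an unadjusted p under 0.05 there were 496 probe sets (7.62%), and Ptprj ranked 5 of 6512 by p. An exact two-sided permutation test of this value alone, over 4 SHR and 4 WKY collateral arrays, gave p = 0.0286, the smallest p that this design allows. Whether these arrays share animals with the control arrays that chose Ptprj is not stated. The probe set also passed the filter through WKY. Neither this p nor the rank is therefore independent evidence of a strain difference. The difference was -2.91 without SHR collateral 3 (limma, adjusted p = 0.179) and -3.17 without SHR collateral 1, where the adjusted p from limma was 0.0499. With each signal raised to at least its array's 20th percentile, which limits the effect of dim values, it was -2.63 (limma, adjusted p = 0.0787).

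In control arteries the log2 difference was -3.48 ± 0.57 (SE), with a mean of 6.22 in SHR and 9.71 in WKY. This contrast chose the gene, so the value is a description. Over all probe sets 2 of 6512 passed in this comparison with limma (0.0307%), and 0 with no filter on low signal. No call is read for Ptprj here, and the other 7 probe sets did not pass. With the 20th percentile as the lower limit of each array the difference was -3.40, and with a constant of 68.5 added to every signal it was -2.66. Over the 6512 probe sets, 14 had all 8 SHR arrays below all 7 WKY arrays (0.215%) and 15 had them all above (0.23%). The gap between the strains, from the nearest SHR to the nearest WKY value, was 0.98 for Ptprj. Among the 14 lower probe sets the next gap was 0.72, for a probe set with no gene name in the annotation, and then 0.33 for Cnn3, a calponin of the actin cytoskeleton. Among the 15 higher ones the widest was 0.67, for the MHC gene RT1-A3. These genes were named after their values were seen. The gap of Ptprj includes the control arrays on which it was chosen, and its probe set passed the filter through WKY. Its place among these probe sets is therefore a description and not evidence of a strain difference. Ptprj has a single probe set, and on it a sequence variant between the strains and a difference in RNA level cannot be told apart.

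Ptprj lies on chromosome 3. The 250 bases just upstream of its RefSeq start site in the rat reference build GRCr8 (chr3:97017657-97017906, minus strand) are shown. Ptprj was taken because its probe set had the widest signal gap of those on which the strains did not overlap. Matches to the GC box GGGCGG, on either strand, are in capitals.

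Ptprj: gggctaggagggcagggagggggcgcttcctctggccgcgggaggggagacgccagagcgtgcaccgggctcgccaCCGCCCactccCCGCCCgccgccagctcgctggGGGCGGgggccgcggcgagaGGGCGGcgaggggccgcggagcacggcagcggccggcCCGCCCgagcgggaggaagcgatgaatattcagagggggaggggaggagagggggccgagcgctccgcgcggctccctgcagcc

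This stretch held 5 GC boxes, a motif found at least once in 30.5% of 33469 upstream stretches of the same length, and no match to TATAAA on either strand, which 12.9% of them hold. Its share of G and C was 79.2%, against a median of 51.2% over all stretches. The reference strain is neither SHR nor WKY, and no array value bears on these letters.

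Collateral and control arteries of the same strain overlapped in Ptprj. In SHR the log2 difference, collateral minus control, was 0.48 ± 0.53 (SE, 95% interval -0.64 to 1.59). In WKY it was -0.26 ± 0.57 (SE, 95% interval -1.46 to 0.95). The difference between these changes, SHR minus WKY, was 0.73 ± 0.78 (SE, 95% interval -0.91 to 2.38, limma, unadjusted p = 0.363). The intervals leave room for a change of more than 1 log2 unit downward in WKY and upward in SHR. Each of these contrasts uses arrays of the strain comparisons, so they are not separate evidence. With limma, 0 of 6512 probe sets passed in each (0%), and an unadjusted p under 0.05 was reached by 245 probe sets for SHR (3.76%), 206 for WKY (3.16%) and 124 for the difference of the changes (1.9%).

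Ptpra was read by L01702_at and U57500_s_at, and in SHR their differences had opposite signs. The signal of L01702_at was 371, 298, 75.9 and 318 on the SHR collateral arrays, against 475, 374, 635 and 629 on the SHR control arrays. All 4 collateral values were below all 4 control values, and the array SHR collateral 3 was far the lowest and dim. The log2 difference was -1.18 ± 0.47 (SE; limma, unadjusted p = 0.0208, adjusted p = 0.949), and it was -0.66 ± 0.35 without SHR collateral 3.

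The signal of U57500_s_at was 281, 399, 619 and 304 on the SHR collateral arrays, against 231, 199, 214 and 209 on the SHR control arrays. Here all 4 collateral values were above all 4 control values, and SHR collateral 3 was the highest. The log2 difference was 0.84 ± 0.49 (SE; limma, unadjusted p = 0.100, adjusted p = 0.949), and 0.61 ± 0.50 without SHR collateral 3. Groups that do not overlap were found for 0.814% of tested probe sets in the lower direction and 0.906% in the higher direction of this comparison.

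In WKY both probe sets of Ptpra overlapped between vessels. L01702_at had signals of 366, 292, 455 and 361 on collateral and of 303, 391 and 489 on control arrays, a log2 difference of -0.09 ± 0.50 (SE). U57500_s_at had signals of 300, 265, 402 and 274 on collateral and of 267, 67.3 and 308 on control arrays, a log2 difference of 0.79 ± 0.53 (SE), which was 0.09 without WKY control 2, the array at 67.3. The readings gave no common direction for Ptpra in collaterals.

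The strains overlapped in Ptpra. In collateral arteries the log2 difference, SHR minus WKY, was -0.68 ± 0.47 (SE, 95% interval -1.66 to 0.30) by L01702_at and -0.15 without SHR collateral 3, and it was 0.32 ± 0.49 (SE, 95% interval -0.70 to 1.34) by U57500_s_at and 0.08 without that array. The exact permutation p of these was 0.286 and 0.257. In control arteries the differences were 0.42 ± 0.50 and 0.27 ± 0.53.

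Ptprf (M60103_at) was bright in every group and the steadiest of the 8 probe sets, with a spread within groups of 0.33 (SD, log2). Its signal was 1769, 1755, 1038 and 2399 on the SHR collateral arrays, against 2259, 1697, 1977 and 2121 on the WKY collateral arrays. It was 1985, 2006, 2361 and 2730 on the SHR control arrays, against 2156, 3189 and 2117 on the WKY control arrays. The groups overlapped in all 4 comparisons of this kind, and the array at 1038 was SHR collateral 3. It ranked between the 70.1 and the 89.6 percentile on SHR arrays and between the 84.5 and the 90.8 percentile on WKY arrays.

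The log2 difference in Ptprf, SHR minus WKY, was -0.26 ± 0.27 (SE, 95% interval -0.83 to 0.30) in collateral arteries, but -0.04 without SHR collateral 3. It was -0.12 ± 0.29 (SE, 95% interval -0.73 to 0.49) in control arteries. Collateral minus control was -0.43 ± 0.27 (SE) in SHR, -0.21 without SHR collateral 3, and -0.29 ± 0.29 (SE) in WKY. None passed (limma, smallest adjusted p = 0.792).

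Ptprs was read by 4 probe sets, 2 of them (L19180_at and L19180_g_at) named for the same sequence record. In collateral arteries the log2 difference, SHR minus WKY, was -1.33 ± 1.06 (SE) by L11587_at, 0.47 ± 0.56 by L19180_at, -0.61 ± 0.45 by L19180_g_at and -0.43 ± 0.38 by L19933_s_at. All overlapped between the strains, and the exact permutation p was 0.314, 0.114, 0.429 and 0.314. The brightest, L19180_g_at, had signals of 1296, 396, 297 and 1407 on the SHR collateral arrays, against 1228, 1118, 891 and 963 on the WKY collateral arrays. SHR collateral 2 and 3 were low there, the other SHR arrays were high, and without SHR collateral 3 the difference was -0.22. Without that array L19180_at stood at 0.31 and L19933_s_at at -0.16. In control arteries the 4 differences lay between -1.45 and 0.23.

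All 4 Ptprs probe sets had a lower mean in collateral than in control arteries in each strain, but for 2 of them the sign turned when 1 array was left out. In SHR the log2 differences were -0.57 ± 1.06 (SE), -0.89 ± 0.56, -0.99 ± 0.45 and -0.74 ± 0.38 in the order above, and in WKY they were -0.69 ± 1.14, -1.39 ± 0.60, -0.61 ± 0.48 and -0.07 ± 0.41. In the mean of both strains L19180_at stood at -1.14 ± 0.41 (limma, unadjusted p = 0.0121, adjusted p = 0.807) and L19180_g_at at -0.80 ± 0.33 (unadjusted p = 0.0251, adjusted p = 0.923). In that comparison 0 of 6512 probe sets passed (0%), and an unadjusted p under 0.05 in the lower direction was reached by 2.58% of them. Without SHR collateral 3 these 2 values were -1.22 and -0.60. The SHR differences were then -0.20 by L11587_at, -1.06 by L19180_at, -0.59 by L19180_g_at and -0.46 by L19933_s_at. In SHR, L11587_at stood at 0.26 without SHR collateral 4, and L19180_at at -0.45 without SHR control 1. In WKY, L19933_s_at was above 0, up to 0.09, when any of 4 arrays was left out, and L19180_at stood at -0.83 without WKY control 3. The probe sets share arrays and a target gene, so their common sign is not 4 separate observations. Over the 15 arrays their Pearson correlations ran from -0.06 (L19180_at with L19933_s_at) to 0.54 (L19180_g_at with L19933_s_at). For L19180_at with L19180_g_at, named for the same record, r was 0.16, so they did not read alike.

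L19180_at shows the spread behind these values. Its signal was 175, 193, 276 and 158 on the SHR collateral arrays, against 916, 201, 329 and 289 on the SHR control arrays. In WKY it was 108, 197, 141 and 135 on collateral arrays, against 154, 409 and 810 on control arrays. The control arrays ranged widely and overlapped the collateral arrays in both strains.

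**Figure D2:**
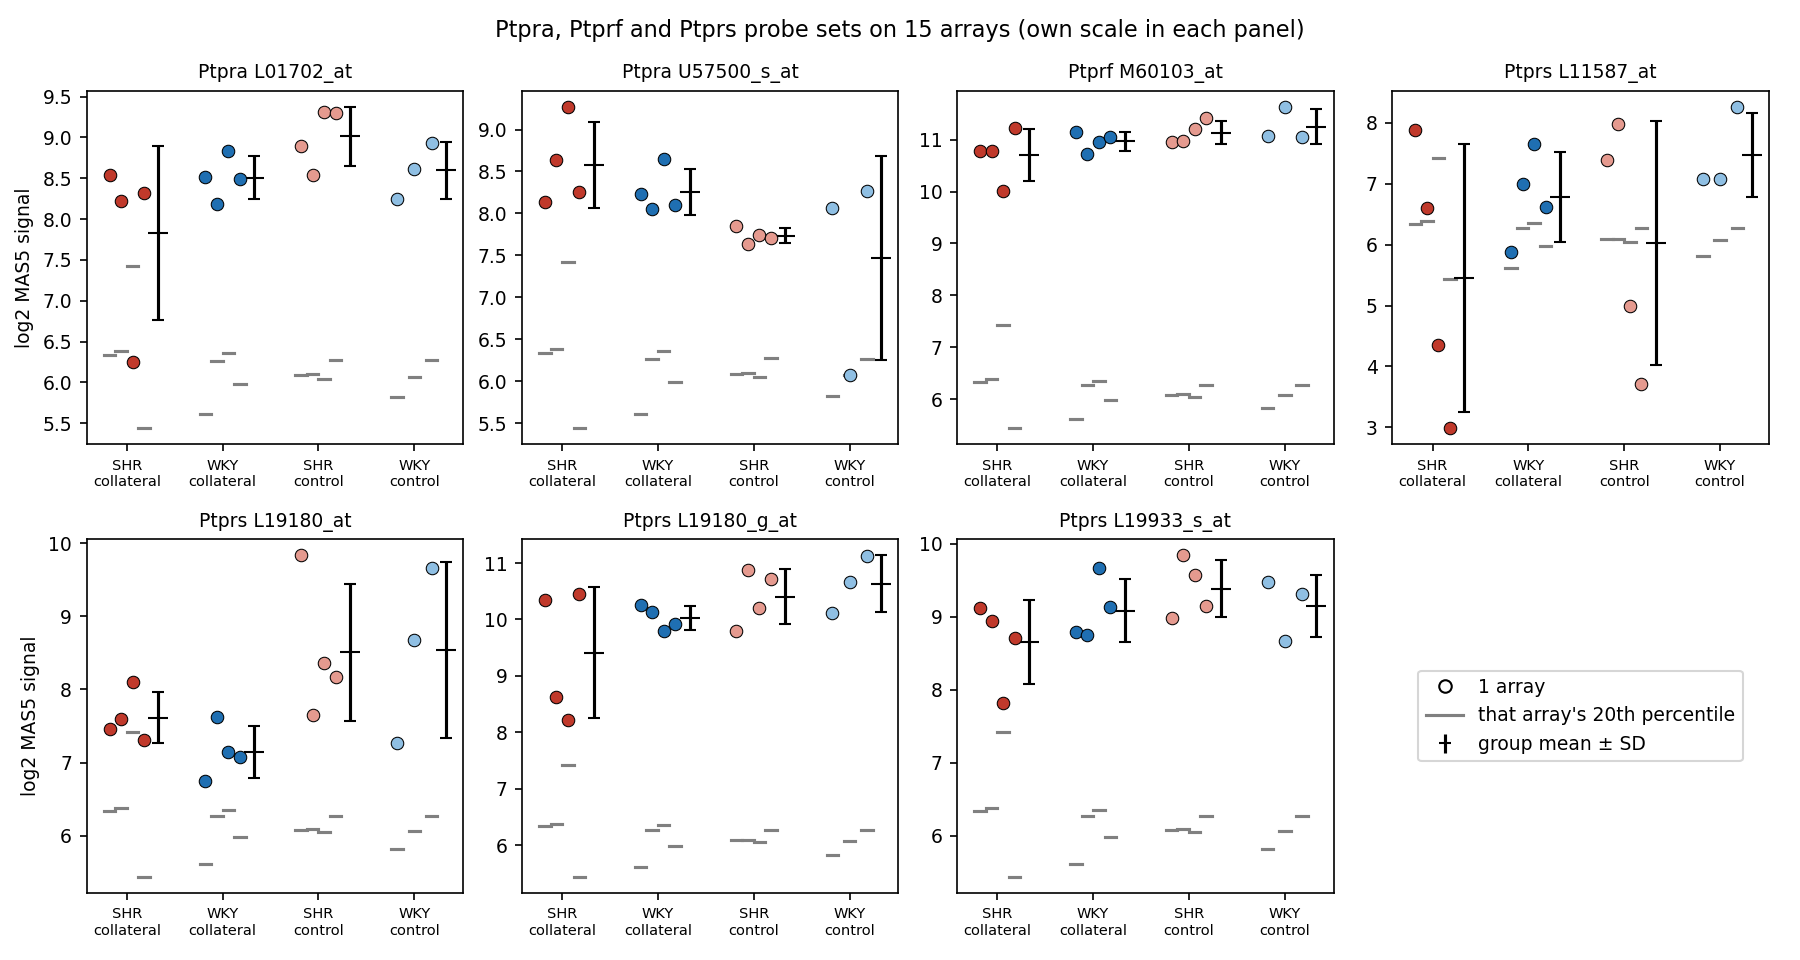
Log2 MAS5 signal of the 7 probe sets of Ptpra, Ptprf and Ptprs on the 15 arrays, with 1 point per array, group mean ± SD and a grey line at each array's 20th percentile. Collateral and control points of SHR part in opposite directions for the 2 Ptpra probe sets, and L11587_at of Ptprs has 4 SHR points below their grey lines.

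The Ptprs probe set L11587_at was the most variable, with a spread within groups of 1.63 (SD, log2). On SHR collateral arrays its signal was 237, 96.9, 20.4 and 7.91, and on SHR control arrays it was 168, 253, 32.0 and 13.1. The arrays numbered 3 and 4 of both SHR groups were dim and the others were not. On WKY arrays it was 58.7, 127, 200 and 98.3 for collateral and 135, 135 and 308 for control arteries, and 0 of 7 were dim. This probe set reached the 40th percentile of its array on 3 of 15 arrays, the least that the filter admits, and its strain difference in collateral arteries was 0.05 when signals were raised to the 20th percentile.

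**Figure D3:**
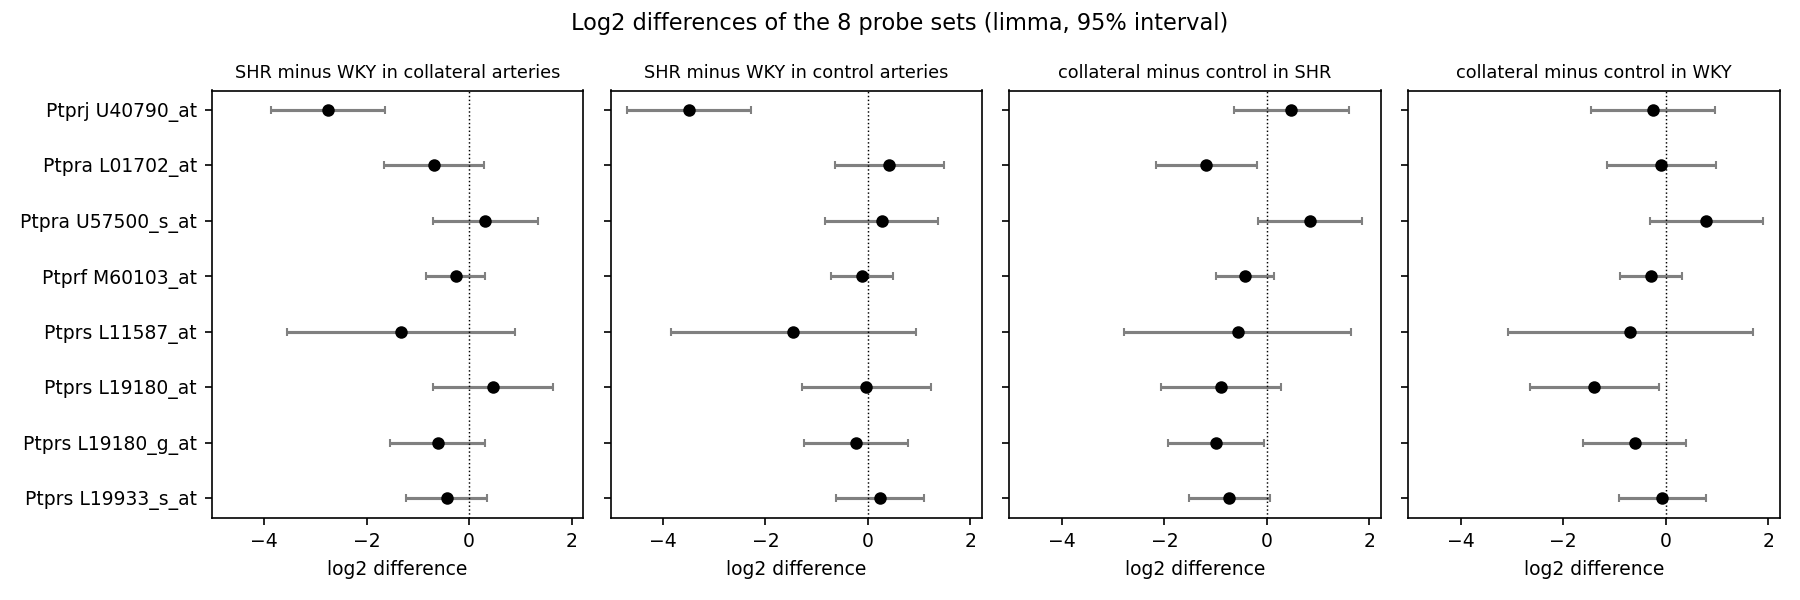
Log2 differences of the 8 probe sets in 4 comparisons, as points with 95% intervals from limma. In collateral arteries the interval of Ptprj runs from -3.87 to -1.64 and the intervals of the other 7 include 0. The Ptprj value in control arteries is the one that chose the gene.

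Over the 8 probe sets, 6 had a lower mean in SHR than in WKY collateral arteries, while 41.1% of all tested probe sets did. The 6 are not 6 genes: they include several probe sets of Ptprs, and Ptprj, chosen on its strain difference in control arteries. Without SHR collateral 3, Ptpra L01702_at stood at -0.15, Ptprf at -0.04, L19180_g_at at -0.22, L19933_s_at at -0.16 and L11587_at at -0.96. No lean of the family is read from this count. All 8 passed the filter on low signal, that of Ptprj through WKY as stated.

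Of the other receptor tyrosine phosphatases, Ptprm was also lower in SHR on every array. It is an adhesion phosphatase whose extracellular part binds its own kind on neighbouring cells, and it is known from endothelium. Ptprm (rc_AI639001_at) averaged 10.46 ± 0.38 in SHR collateral and 11.24 ± 0.26 in WKY collateral arteries (SD, n = 4 each), a log2 difference of -0.79 ± 0.29 (SE; limma, unadjusted p = 0.0146, adjusted p = 0.549). It averaged 10.18 ± 0.47 (SD, n = 4) in SHR control and 11.30 ± 0.37 (SD, n = 3) in WKY control arteries, a difference of -1.12 ± 0.31 (SE; limma, adjusted p = 0.321). The gap between the strains was narrow, at 0.08.

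Of 18 other receptor type genes in the list, 14 were on the array and 7 were tested, and 0 passed in any comparison. In collateral arteries 5 of the 7 had a higher mean in SHR. Their median log2 difference was 0.67, where that of 3825 genes was 0.07. They included Ptprc, the leukocyte phosphatase CD45, at 0.83 ± 0.60 (SE), and Ptpro at 0.85 ± 0.55. Of 20 non-receptor tyrosine phosphatases 13 were tested, 7 with a higher and 6 with a lower mean in SHR collaterals, with a median of 0.31 and 0 past the threshold. Ptp4a1, a membrane-bound phosphatase linked to growth, had the smallest p there at -0.97 ± 0.38 (SE; limma, adjusted p = 0.576), and Ptpn6, the blood cell phosphatase SHP-1, stood at 1.45 ± 0.69 (adjusted p = 0.647).

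**Figure D4:**
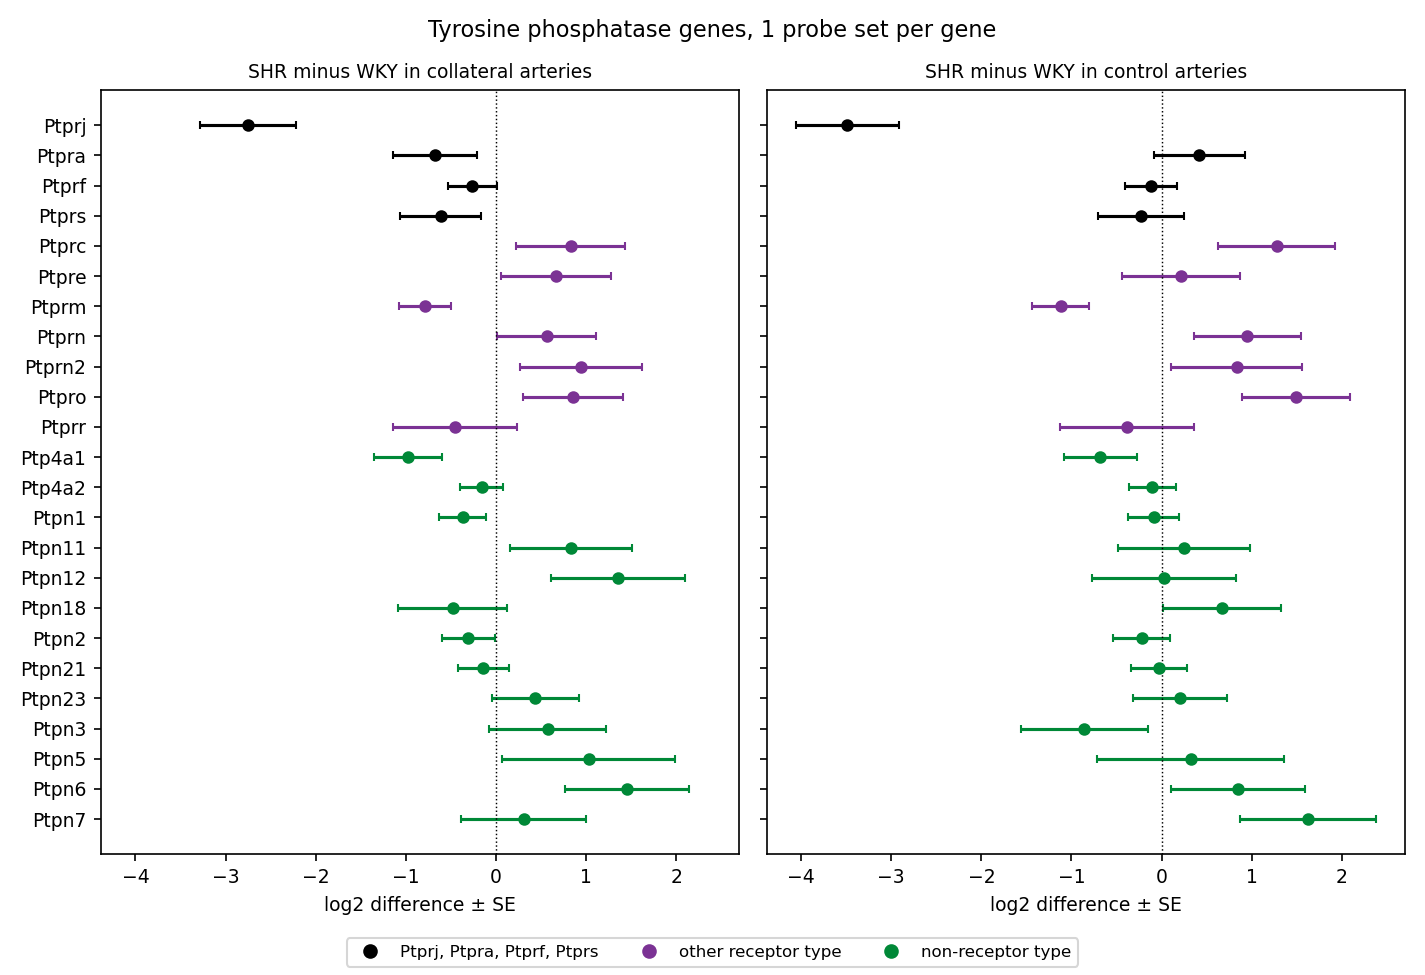
Log2 difference ± SE, SHR minus WKY, for tyrosine phosphatase genes in collateral and in control arteries, with 1 probe set per gene, the one with the highest mean signal. Ptprj lies at -2.75 and -3.48, and the next lowest are Ptp4a1 at -0.97 in collateral and Ptprm at -1.12 in control arteries.

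Known substrates and partners of these phosphatases were taken as 2 lists. Of 34 receptor tyrosine kinases and other substrates, 20 were tested and 17 had a higher mean in SHR than in WKY collaterals, but 0 passed. A lower mean was found for 3 of them, against 41.1% of all tested probe sets. The median was 0.46, where that of 3825 genes was 0.07. The median of all tested probe sets was 0.12, and 0.01 without SHR collateral 3. The list median was not computed without that array. Erbb2, a receptor kinase of the EGF receptor family, averaged 9.03 ± 0.69 in SHR and 7.16 ± 0.41 in WKY collateral arteries (SD, n = 4 each), a difference of 1.87 ± 0.48 (SE; limma, adjusted p = 0.236). Members known as targets of Ptprj, of which some are given here, did not share a sign in collaterals. The tight junction protein Tjp1 and the phospholipase Plcg1 stood at -0.65 ± 0.41 (SE) and -0.16 ± 0.28, against means above 0 for the PDGF receptor Pdgfrb at 0.51 ± 0.63 (SE), the VEGF receptor Kdr at 0.46 ± 0.44 and the HGF receptor Met at 1.69 ± 0.81. In control arteries, where the list median was -0.06, the 3 receptors stood at -0.07, 0.06 and -0.04, Tjp1 at -0.28 and Plcg1 at -0.13, and 9 of 20 list members had a higher mean in SHR. Occludin (Ocln), of the same list, stood at 1.34 ± 0.67 (SE) in collateral and -1.07 ± 0.73 in control arteries. These are RNA signals, and tyrosine phosphorylation was not measured.

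Of 30 ligands and partners 16 were tested, 9 with a higher and 7 with a lower mean in SHR collaterals, and 0 passed. Their median was 0.14, where that of 3825 genes was 0.07. Csk, the kinase that adds the inhibitory phosphate which Ptpra and Ptprj remove from Src family kinases, stood at 1.57 ± 0.59 (SE; limma, adjusted p = 0.557) in collateral and 1.62 ± 0.64 (adjusted p = 0.650) in control arteries. Its signal was dim on 1 of 4 WKY collateral arrays. Syndecan-2 (Sdc2), reported as a ligand of Ptprj, stood at -0.66 ± 0.32 in collateral and -0.57 ± 0.34 in control arteries. Src itself stood at 0.09 ± 0.61 and -0.27 ± 0.66.

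Endothelial markers differed among themselves. Their summed signal over 11 of 11 tested markers was 5335 to 12291 in SHR collateral, against 13276 to 18367 in WKY collateral arteries, and 6322 to 7073 in SHR control, against 8531 to 11884 in WKY control arteries. In collateral arteries 6 of 11 had a lower mean in SHR, with a median of -0.31 (0.07 over 3825 genes) and 0 past the threshold. The 6 were Sele at -2.03, Icam2 at -1.96, Esm1 at -1.40, Edn1 at -1.30, Selp at -0.86 and Nos3 at -0.31, and the other 5 were Vwf at 0.09, Thbd at 0.10, Kdr at 0.46, Pecam1 at 0.66 and Flt1 at 1.51. In control arteries the same 6 had a lower mean in SHR, among them Icam2 at -3.62 (limma, adjusted p = 0.0434) and Nos3 at -0.67, while Pecam1 stood at 0.73 and Vwf at 0.12. The part of endothelial content in the Ptprj result was not tested.

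Leukocyte markers mostly had higher means in SHR. Their summed signal over 10 genes, 7 of them tested, was 15353 to 29471 in SHR collateral, against 3007 to 18007 in WKY collateral arteries, and 4614 to 42586 in SHR control, against 2542 to 4807 in WKY control arteries. In collateral arteries 7 of 7 had a higher mean in SHR, with a median of 1.53 (0.07 over 3825 genes), and 0 passed. Cd74, the chain that accompanies MHC class II, stood at 3.42 ± 0.83 (SE; limma, adjusted p = 0.226) and C1qb, a complement gene of macrophages, at 2.30 ± 0.63 (adjusted p = 0.306). The signal of Cd74 was dim on 1 of 4 WKY collateral and 2 of 3 WKY control arrays, which limits the size of its difference. The leukocyte list includes Ptprc, which is also counted above. Platelet and red cell markers, of which 4 were tested, had a median of 0.48 in collateral arteries. Smooth muscle markers had a lower mean in SHR collaterals for 8 of 9 genes (median -0.75), and Itga7, a laminin receptor of muscle, stood at -1.12 ± 0.28 (SE; limma, adjusted p = 0.226). Medians were 0.22 for 8 fibroblast, 0.52 for 9 neural and Schwann cell and 1.25 for 6 adipocyte markers, and 0 members passed. No marker in these lists was dim on all 15 arrays. In collateral arteries, the medians of all gene lists and the differences of list members are given only with SHR collateral 3, the array that stood apart.

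The genes whose signal over the 15 arrays was most like that of Ptprj were Anapc16, Icam2, Fhip2a, Icam1 and Vcam1, ranked by Pearson correlation among 3824 genes. Anapc16, a subunit of the anaphase-promoting complex, had r = 0.902 and Spearman rho = 0.857. Icam2, an adhesion molecule of endothelium, had r = 0.873 and rho = 0.886, and Fhip2a had r = 0.810 and rho = 0.771. The adhesion molecules Icam1 and Vcam1, which leukocytes bind on activated endothelium, had r = 0.804 and 0.802. The points share 15 arrays and the split between strains. After group means were removed the correlations were 0.34, 0.41, 0.17, 0.52 and 0.37 in the same order, so much of each came from differences between groups.

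**Figure D5:**
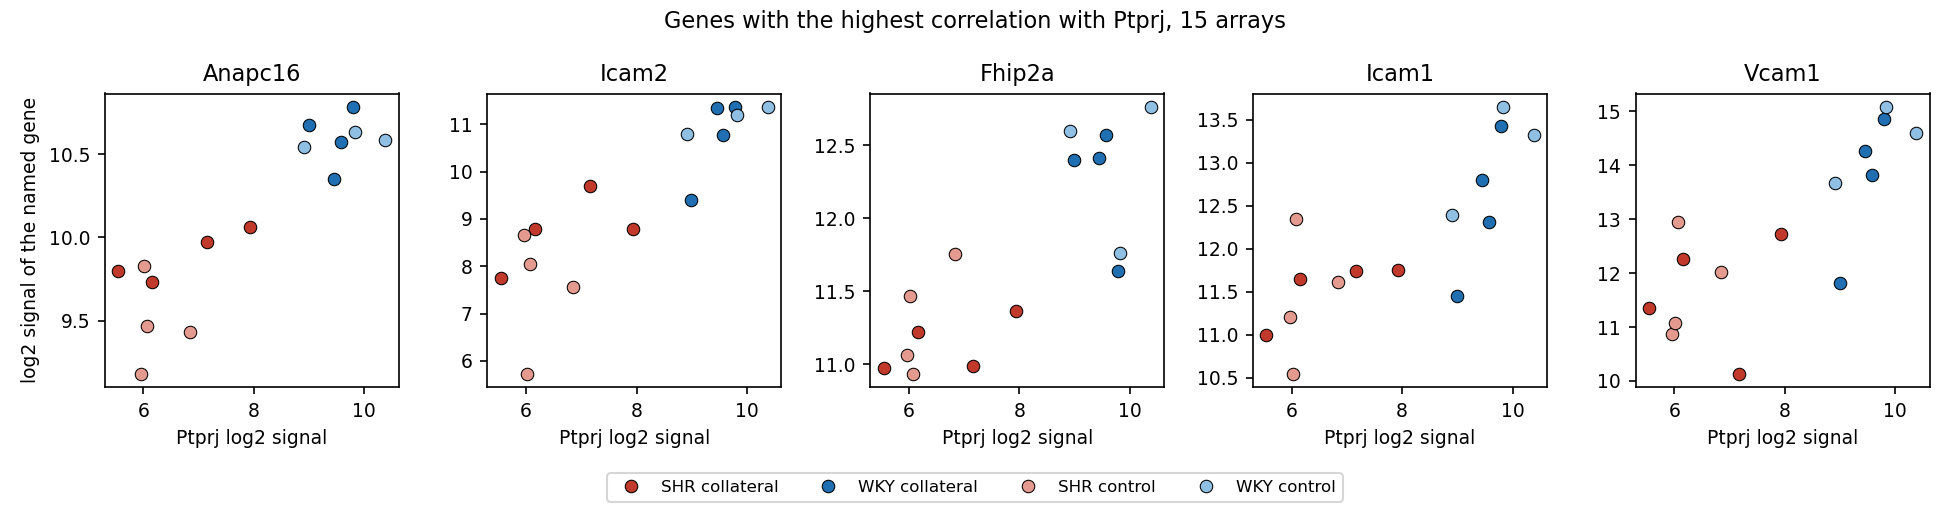
Log2 signal of the 5 genes most like Ptprj against the log2 signal of Ptprj, 1 point per array, coloured by group. SHR points lie to the left, up to 7.93, and WKY points to the right, from 8.91, and within a strain the points scatter.

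The levels of these genes set Ptprj beside its nearest likenesses. Anapc16 averaged 9.89 ± 0.15 in SHR collateral and 10.60 ± 0.19 in WKY collateral arteries (SD, n = 4 each), and all 8 SHR arrays lay below all 7 WKY arrays by a gap of 0.29. Icam2 averaged 8.76 ± 0.79 in SHR collateral and 10.72 ± 0.93 in WKY collateral arteries (SD, n = 4 each), and its strain ranges overlapped there. Vcam1 averaged 11.62 ± 1.14 in SHR collateral and 13.69 ± 1.32 in WKY collateral arteries (SD, n = 4 each).

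For the other phosphatases the likeness rested partly on 1 array. Pias3, Tnk2 and Wdfy3 were most like Ptpra by L01702_at, with r = 0.917, 0.904 and 0.896, and without SHR collateral 3 these were 0.630, 0.572 and 0.463. Atp5f1a, Jag1 and Gnptg were most like Ptprf, with r = 0.889, 0.880 and 0.876, and 0.752, 0.713 and 0.751 without that array. Aspn, Ndrg2 and Atrn were most like Ptprs by L19180_g_at, with r = 0.937, 0.920 and 0.903, and 0.900, 0.894 and 0.847 without it.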

How the data were processed

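Total RNA from mesenteric arteries was labelled with biotin, per the labels' protocols, and measured on arrays whose control probe sets carry Affymetrix names. GCOS and MAS5 are named in the submitters' processing notes, without versions, as the authors' software for the deposited signal values. They had been scaled: the mean after trimming 2% from each end was 1001.1 to 1001.8 on every array. Signals under 1, of which there were 12, were raised to 1 before the log2. The 59 control probe sets were left out, and 6512 of 8740 others were tested because 3 or more arrays had them at or above the 40th percentile of that array. Names came from the platform annotation; 8 of 8 member probe sets matched the RefSeq gene table by gene identifier with the same symbol. Of the 8740, 7006 had 1 symbol, 308 several and 1426 none, and only those with 1 were named. The upstream sequence is RefSeq's, build GRCr8.

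Limma 3.58.1 in R 4.3.3 was fitted with 4 group means over 15 arrays, a variance trend, two-sided tests and Benjamini-Hochberg adjustment over all tested probe sets, at 0.05. The variance had 11 residual degrees of freedom and 7.19 from the prior. The fit was tested on simulated data. The members and gene lists were chosen with earlier results of these data known. Lists used the brightest tested probe set per gene. Named genes were list members with an unadjusted p under 0.01 or the smallest p in collateral arteries, and the genes most correlated with each member; the text names part of these. Pdgfrb, Kdr, Met, Tjp1, Plcg1, Sdc2 and Src were added for their roles and the remaining names as examples of their lists. The replicate numbers were not taken as pairs, because the labels do not say what they mark. Correlations taken for this question are a different measure from the Spearman correlations of whole arrays given above. Those of same-numbered arrays lay between -0.07 and 0.31, and the highest with another number between -0.10 and 0.11. The same-numbered value was the higher one for SHR 1, 2 and 3 and for WKY 1 and 3. It was the lower one for SHR 4 and WKY 2, so these values do not settle whether arrays are paired.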

Additional observations from a re-analysis of the deposited data

Results flagged for a closer look

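Within groups of 4 arrays, 2 of 24 sets of 4 readings of a member probe set held 1 reading far from the other 3. Its gap over range was above Dixon's critical value, which chance gives in about 1 set in 20. Ptprj on SHR control 2 stood at 6.84, against 5.96 to 6.07 on the other SHR control arrays. Ptpra by L01702_at on SHR collateral 3 stood at 6.25, against 8.22 to 8.54 on the other SHR collateral arrays; that array also stood apart over all probe sets.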

How the results depend on the processing

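The strain difference of Ptprj in collateral arteries stayed negative under every alternative run, between -3.17 and -2.09, and its adjusted p from limma was under 0.05 only without SHR collateral 1 (0.0499). Leaving out 1 array gave -3.17 to -2.37 there. In control arteries Ptprj moved by more than its within-group SD only with the constant added (-2.66). Of the member values other than that one, 422 of 436 kept direction and side of the threshold over the settings, and 655 of 687 did with an array left out. Equal array medians moved the median of all probe sets in SHR against WKY collaterals by -0.24 and quantile normalization by -0.13. For all changes given here, the cause was not tested.

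Probe sets called in SHR against WKY collateral arteries numbered 26 with array weights, 6 with the replicate block and 2 with only the arrays compared, and 0 to 7 with an array left out (7 without SHR collateral 4; 6 of 15 such fits made calls, as did 6 of 15 in control arteries). In control arteries they numbered 0 with no filter and with the 60th percentile filter, 1 without the variance trend, 14 with array weights, 4 with the replicate block, 7 with only the arrays compared, and 0 to 6 with an array left out (6 without SHR control 4). The replicate block changed no call of a member.

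Reversed differences were small against their errors. Array weights gave 0.0737 for Ptprs L11587_at in SHR against WKY collaterals (0.0529 with signals raised to the 20th percentile) and 0.47 for it in SHR collateral against control, and the replicate block gave 0.0502 for L19180_at in SHR against WKY control arteries. For the difference of the collateral changes, Ptpra U57500_s_at stood at -0.13 with quantile normalization, -0.15 with equal medians, -0.41 with array weights and -0.0049 with the replicate block; L11587_at at -0.23, -0.0771 and -0.42 with quantile normalization, equal medians and the replicate block; Ptprf at 0.0594 and L19180_g_at at 0.20 with array weights. The Ptprj mean change was -0.0099 with quantile normalization.

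With an array left out, values that changed sign ranged as follows. In SHR against WKY control arteries: U57500_s_at -0.43 to 0.67, Ptprf -0.22 to 0.0754, L19180_at -0.66 to 0.53, L19180_g_at -0.49 to 0.019 and L19933_s_at -0.0052 to 0.40. Collateral against control: L11587_at in SHR -1.34 to 0.26; in WKY, L01702_at -0.26 to 0.0817, Ptprj -0.65 to 0.082 and L19933_s_at -0.31 to 0.0942; Ptprj in the mean of both strains -0.10 to 0.30. Difference of the changes: U57500_s_at -0.35 to 0.75, Ptprf -0.34 to 0.0811, L11587_at -0.64 to 0.95, L19180_at -0.0638 to 1.13 and L19180_g_at -0.74 to 0.013. The 60th percentile filter gave no value for U57500_s_at, L11587_at and L19180_at, and L11587_at failed the filter without any of 3 arrays. Signals near the 20th percentile limit the size of the Ptprj and L11587_at differences.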
